A study of Homo sapiens with 6 samples.

Results

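Aldehyde dehydrogenases oxidize aldehydes to carboxylic acids, and the ALDH1A enzymes among them turn retinaldehyde into retinoic acid. Retinoic acid is carried to the nucleus by CRABP2 and acts through the receptors RARA, RARB and RARG, which sit with an RXR partner on paired half-sites in DNA and raise the transcription of target genes, RARB and the degrading enzyme CYP26A1 among them. In the colon, high aldehyde dehydrogenase activity is widely used to mark stem-like cells of the crypt base and of tumors. The 10 genes described here are 7 aldehyde dehydrogenases (ALDH1A1, ALDH1A2, ALDH1A3, ALDH1B1, ALDH2, ALDH3A1 and ALDH3A2), the receptors RARA and RARB, and the carrier CRABP2. They were picked by symbol out of 58884 Ensembl genes, with this comparison already known, so that their own differences are given below as a description and without a test. All 10 were found in the table, and 9 passed the filter on low counts. ALDH1A2 did not.

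RNA-seq was performed in 3 libraries of DLD1 parental cells and 3 libraries of p85β KR-AA cells. DLD1 is a colorectal cancer line that carries a *PIK3CA* helical domain mutation, and by the study's account the knock-in cells were made from it. In p85β KR-AA cells, K477A and R478A were knocked into *PIK3R2*, the gene for the PI3K regulatory subunit p85β, by CRISPR/Cas9, which puts alanine at a pair of basic residues of a predicted nuclear localization sequence. The study describes homozygous clones that were derived independently, but the labels number the libraries without naming a clone, so the p-values below measure the spread between these libraries only, which may be technical.

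The estimated counts summed to between 20301396 and 26712816 per library. The targeted gene *PIK3R2* had 34.8, 12.3 and 19.3 CPM (counts scaled to a common library size with TMM normalization) in parental cells. It had 13.7, 16.6 and 4.54 CPM in p85β KR-AA cells, values that overlap with the parental ones (log2 fold change -0.93, edgeR adjusted p = 0.0558, and -0.45 to -1.26 with single libraries left out). With scaling by library totals the log2 fold change was 0.00 (adjusted p = 0.994), and with offsets for length and GC it turned to 0.34. A table of counts does not show the edited codons. The conditions differed across the transcriptome: 46.2% of the 16059 genes tested were called, 28.6% higher and 17.6% lower. A call needed an adjusted p under 0.01 by edgeR's quasi-likelihood test and a change of 3-fold or more. The difference included markers of cell identity. Of 12 colon epithelium markers, 11 could be tested, 2 were called higher and 6 lower, and their summed level was 57200 to 79300 CPM in parental against 8810 to 10300 CPM in mutant libraries. Most of that sum was keratin: KRT8 was at 37400 CPM in parental and 4450 CPM in p85β KR-AA cells. CDX2 was called lower (347 and 88.0 CPM), and the cadherins CDH1 (97.3 and 344 CPM) and CDH17 (6.60 and 28.5 CPM) were called higher. EPCAM, at 313 and 172 CPM, was not called, and its log2 fold change of -0.86 turned to 0.07 with scaling by library totals, while CDX1 had at most 3 counts in any library. The summed level of 14 mesenchyme markers was 7.86 to 10.8 CPM in parental and 6340 to 7260 CPM in p85β KR-AA libraries, and 7 of the 9 that could be tested were called higher, although 5 of the 14, COL1A2, PDGFRA, THY1, TWIST1 and SPARC, had at most 3 counts in every p85β KR-AA library. Of 12 hepatocyte markers, a list included because liver is rich in ALDH1A1, 3 could be tested and 1 was called higher. ALB had at most 1 count in any library. The summed level of that list was 58.6 to 69.3 CPM in parental and 103 to 117 CPM in p85β KR-AA libraries. Of 10 neuron markers, 5 could be tested and 4 were called higher, while their summed level was 521 to 608 CPM in parental and 348 to 368 CPM in mutant libraries. Most of that sum was TUBB3 (561 and 211 CPM), which was not called, while NEFL went from 0 to 132 CPM. The order of the neuron sums turns with scaling by library totals. Of 8 blood markers (5.84 to 13.0 and 6.16 to 7.36 CPM summed), 2 could be tested and 0 were called by edgeR or DESeq2, with 0 at an unadjusted p under 0.05, but both were called higher with offsets for length and GC. A further 5 genes of chromosome Y had more than 3 counts in every p85β KR-AA library and none in a parental library. Whether both cultures are the same line was not tested, and neither was the part of these differences in the results below. In bulk RNA, fewer cells of a type and less RNA per cell cannot be told apart.

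Scaling matters for genes that differed little. The median log2 fold change over all tested genes was 0.32, and scaling by library totals in place of TMM raised it by 0.92. Values below are on the TMM scale, and where total scaling turns a direction this is said in the same sentence.

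Among the retinaldehyde dehydrogenases, ALDH1A1 went from no count in parental cells to a level per length above that of ALDH1A3 in p85β KR-AA cells, ALDH1A2 stayed near the limit of detection, and ALDH1A3 overlapped between the conditions. ALDH1A1 is a cytosolic enzyme and one of those linked to the aldehyde dehydrogenase activity of stem-like cells. The gene (ENSG00000165092) lies on the minus strand of chromosome 9 of GRCh37, from 75515587 to 75695358. It had 0 counts in each parental library, where up to 3 counts (0.1851 to 0.2185 CPM) could have been missed by counting error alone. In the p85β KR-AA libraries it had 3044, 2364 and 1867 counts, or 83.0, 82.3 and 68.0 CPM. All p85β KR-AA libraries were thus far above the parental ones. Their mean of 77.8 ± 8.46 CPM (SD, n = 3) was at least 356-fold higher than parental cells, taking as floor the largest parental value of 3 counts (0.2185 CPM). The one annotated gene that overlaps ALDH1A1 and has a row in the table, the pseudogene CYP1D1P, had no count in any library.

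Since ALDH1A1 and ALDH1A3 make the same product and differed so much in parental cells, the 250 bases before their annotated starts are shown, with each CpG in capitals (RefSeq, GRCh38.p14). The ALDH1A1 sequence is on the minus strand at chr9:72953054-72953303 and the ALDH1A3 sequence on the plus strand at chr15:100879581-100879830.
ALDH1A1: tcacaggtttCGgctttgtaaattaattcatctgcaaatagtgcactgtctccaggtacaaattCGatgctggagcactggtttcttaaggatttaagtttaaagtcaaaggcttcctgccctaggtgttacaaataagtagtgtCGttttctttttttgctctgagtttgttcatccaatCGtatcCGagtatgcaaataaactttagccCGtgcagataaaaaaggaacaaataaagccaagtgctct
ALDH1A3: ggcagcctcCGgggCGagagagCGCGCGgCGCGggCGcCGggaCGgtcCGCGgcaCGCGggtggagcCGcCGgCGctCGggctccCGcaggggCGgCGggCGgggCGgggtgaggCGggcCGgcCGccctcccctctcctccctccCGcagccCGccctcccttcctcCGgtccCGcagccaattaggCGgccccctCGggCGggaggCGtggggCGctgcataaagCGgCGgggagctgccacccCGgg
The stretches hold 6 and 38 CpG, and whether this bears on the levels of these genes was not tested. Counted over the whole 300-base RefSeq window, which runs 50 bases past the start, ALDH1A1 had 7 CpG and a GC content of 40.3%, and ALDH1A3 had 46 and 81.7%. The median over 35116 such windows was 14 CpG and 58.7% GC, and 39.3% of the windows had no more CpG than that of ALDH1A1. ALDH1A2 has windows of both kinds, with 41 CpG in one and 1 in the other. Each of ALDH1A1 and ALDH1A3 has a CCAAT box (CCAAT on either strand), which 34.6% of all windows hold.

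ALDH1A2 is the main retinoic acid-forming enzyme of the early embryo. It had no count in the parental libraries and 5, 6 and 2 counts in the p85β KR-AA libraries. These counts correspond to 0.136, 0.209 and 0.0729 CPM. Their mean of 0.139 CPM is below what 3 counts stand for in any parental library (0.1851 to 0.2185 CPM), so that no fold is given and a difference was not detectable at this depth.

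ALDH1A3 (ENSG00000184254, plus strand of chromosome 15 of GRCh37, 101417919 to 101456831) had 78.8, 85.8 and 107 CPM in the parental libraries and 80.7, 84.8 and 82.7 CPM in the p85β KR-AA libraries. The p85β KR-AA values lie within the parental range. The log2 fold change was -0.13 (standard error 0.139) and turned to 0.79 with scaling by library totals. An antisense gene, ALDH1A3-AS1, averaged 8.96 counts per parental library and 84.4 per mutant library, and the library kit does not mark strand, so reads of the pair cannot be told apart where they overlap.

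Per gene length, the retinaldehyde dehydrogenases together had 26.0 ± 4.16 CPM per kilobase in parental cells and 61.0 ± 4.10 in the mutant cells (SD, n = 3 each). In parental libraries ALDH1A3 made up 100% of this level. In p85β KR-AA libraries ALDH1A1 made up 57.6% to 62.9% and ALDH1A3 37% to 42.3%. These shares are ratios within a library and do not depend on how libraries are scaled. The level of ALDH1A1 was 37.1 ± 4.04 CPM per kilobase there and that of ALDH1A3 was 23.8 ± 0.580. ALDH1A2 was at most 0.0968% of the sum in any library.

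**Figure D1:**
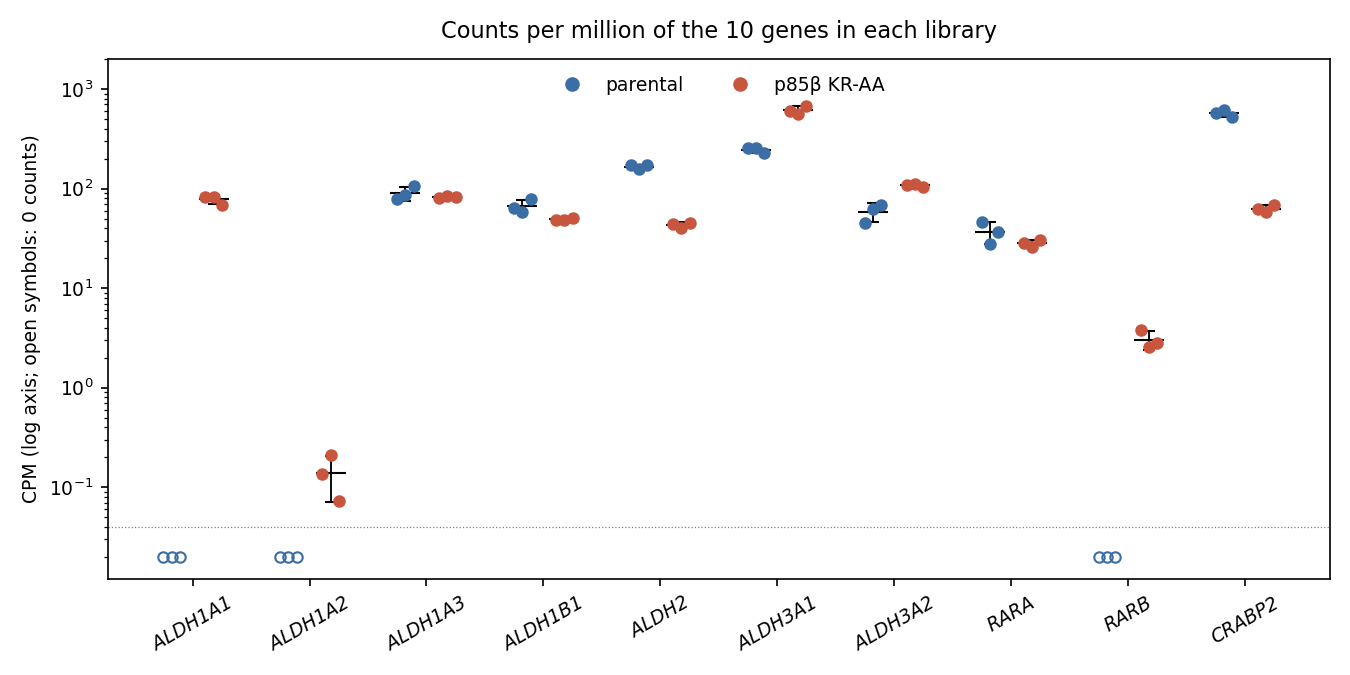
CPM (TMM-scaled, log axis) of the 10 genes in each of 3 parental (blue) and 3 p85β KR-AA (red) libraries, with the mean and SD as a bar, and with libraries at 0 counts drawn as open symbols under the dotted line. ALDH1A1, ALDH1A2 and RARB had no parental count, CRABP2 and ALDH2 were lower in all p85β KR-AA libraries, and ALDH1A3 and RARA overlapped between the conditions.

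The genes most like ALDH1A1 over the 6 libraries, by the root mean square difference of log2 CPM with 0.1 CPM added, were NID2 (0.167), RTN1 (0.275) and IL6 (0.449). NID2, a basement membrane glycoprotein, and RTN1, a reticulon of the endoplasmic reticulum, had no parental count and 66.7 to 68.7 CPM and 58.2 to 64.1 CPM in the p85β KR-AA libraries. IL6, a cytokine, had at most 1 count in a parental library. With 2 conditions, this likeness rests on near-absence in parental cells and a similar level in p85β KR-AA cells.

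The mitochondrial enzymes among the members, ALDH2 and ALDH1B1, behaved unlike ALDH1A1. ALDH2, which clears acetaldehyde formed from ethanol, had 171, 157 and 171 CPM in the parental libraries and 44.6, 40.6 and 45.4 CPM in the p85β KR-AA libraries. The groups were far apart, with means of 166 ± 8.03 and 43.5 ± 2.55 CPM (SD, n = 3 each), and the log2 fold change was -1.93 (standard error 0.125). The difference stayed negative under total scaling, at -1.01, which is short of 3-fold, and a fit with per-gene offsets for length and GC put it at -3.70. ALDH2 (ENSG00000111275, plus strand of chromosome 12 of GRCh37, 112204691 to 112255336) is the longest of the 10 genes in the deposited table, with 9561 bases.

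ALDH1B1, a mitochondrial relative of ALDH2 whose coding region has no intron, had 63.9, 58.3 and 78.8 CPM in parental and 48.2, 48.1 and 51.2 CPM in p85β KR-AA libraries. The p85β KR-AA values were all below the parental ones, but the log2 fold change was small at -0.45 (standard error 0.143) and turned to 0.47 with scaling by library totals.

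ALDH3A1 and ALDH3A2 lie near each other on chromosome 17. ALDH3A1, a cytosolic enzyme for aromatic and medium-chain aldehydes that is abundant in cornea and stomach, had 257, 253 and 228 CPM in parental and 604, 560 and 674 CPM in p85β KR-AA libraries. Per length it had the highest level of the 19 ALDH genes in each condition, and every p85β KR-AA library was above every parental one. The means were 246 ± 15.5 and 612 ± 57.3 CPM (SD, n = 3 each), and the log2 fold change of 1.32 (standard error 0.127) was under the fold of 3. It passed that fold with scaling by library totals (2.24) and with length and GC offsets (2.98). The gene (ENSG00000108602) lies on the minus strand of chromosome 17 of GRCh37, from 19641297 to 19652256.

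ALDH3A2, the fatty aldehyde dehydrogenase of the endoplasmic reticulum, had 44.8, 62.4 and 68.8 CPM in parental and 108, 111 and 104 CPM in p85β KR-AA libraries. Its groups did not overlap, and its log2 fold change was 0.88 (standard error 0.158) with TMM, 1.80 with scaling by library totals and -0.15 with length and GC offsets, so that its direction depends on those offsets. The gene (ENSG00000072210) is on the plus strand, 19551449 to 19589073 of GRCh37.

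**Figure D2:**
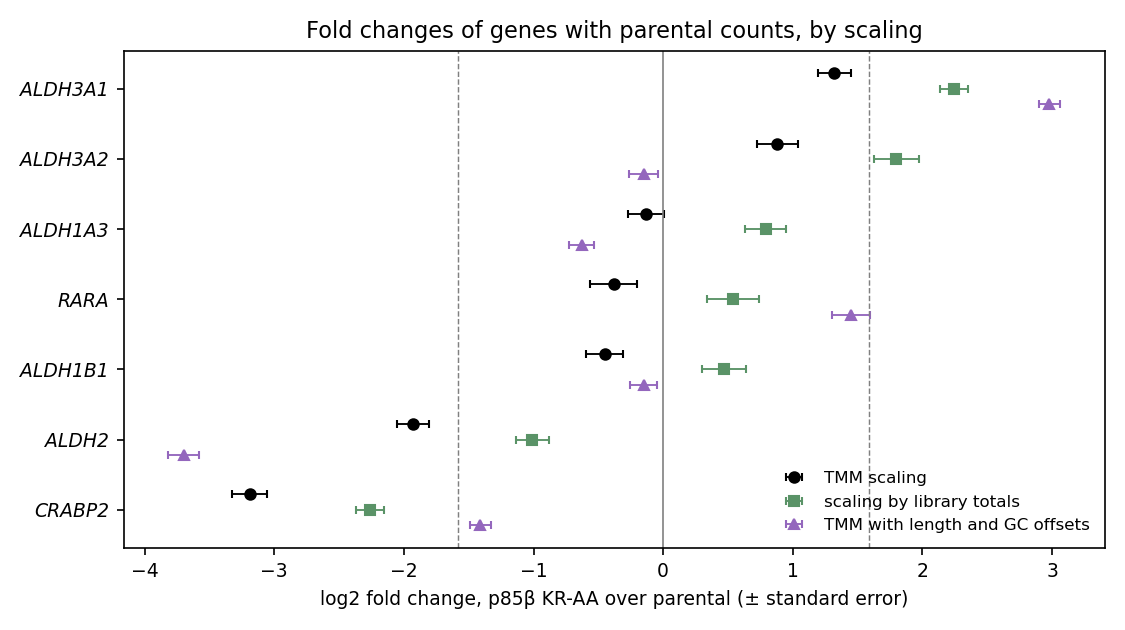
Log2 fold change (p85β KR-AA over parental, ± standard error) of the 7 genes with counts in parental libraries under TMM scaling (circles), scaling by library totals (squares) and TMM with gene length and GC offsets (triangles), with dashed lines at a fold of 3. ALDH3A1 stays above 0 and ALDH2 and CRABP2 below 0 under all of them, while ALDH1A3, ALDH1B1, ALDH3A2 and RARA change sign.

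All 19 ALDH genes together had 391 ± 3.46 CPM per kilobase in parental and 569 ± 32.2 in the mutant cells (SD, n = 3 each). ALDH3A1 alone made up 30.5% to 33.8% of this in parental and 54.0% to 58.0% in p85β KR-AA libraries. ALDH2 went from 4.22% to 4.60% down to 0.786% to 0.827%, and ALDH1A1 from 0% to between 5.38% and 7.29%. With scaling by library totals the sums were 284 ± 19.6 and 783 ± 29.6. Sums and shares carry no offsets for length and GC, which moved the log2 fold change of ALDH3A1 to 2.98 and that of ALDH2 to -3.70.

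Of the retinoic acid receptors, RARA and RARG were present in both conditions and RARB at a low level in p85β KR-AA cells. RARB, the receptor whose own promoter responds to retinoic acid, had no count in any parental library and 138, 73 and 77 counts in the p85β KR-AA libraries, or 3.76, 2.54 and 2.81 CPM. Its mean of 3.04 ± 0.643 CPM (SD, n = 3) was at least 13.9-fold higher than parental cells on the same floor. None of the 6 overlapping genes with a row in the table had a count in either condition. The gene (ENSG00000077092) is a plus-strand gene of chromosome 3 (GRCh37, 24729378 to 25639423) and has 4 RefSeq windows, between which gene counts cannot distinguish.

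A retinoic acid response element was searched for in the RefSeq windows as a direct repeat of the half-sites AGGTCA and AGTTCA, or their forms with G in place of the first A, in any combination, with a spacing of 5 bases (DR5), on both strands. It was present in 31 of 35116 windows (0.0883%), in 1 of the 8 members that have a window, RARB, and in 1 of 47 other genes of the pathway that have one, CYP26A1. The same half-sites at a spacing of 1 or 2 bases, found in 0.131% and 0.0399% of all windows, occurred in none of these genes. The 250 bases before the RARB start with the element (plus strand of GRCh38.p14, chr3:25428013-25428262) are given with the half-sites in capitals, followed by the 17-base CYP26A1 element, which is on the minus strand at chr10:93073803-93073819.
RARB: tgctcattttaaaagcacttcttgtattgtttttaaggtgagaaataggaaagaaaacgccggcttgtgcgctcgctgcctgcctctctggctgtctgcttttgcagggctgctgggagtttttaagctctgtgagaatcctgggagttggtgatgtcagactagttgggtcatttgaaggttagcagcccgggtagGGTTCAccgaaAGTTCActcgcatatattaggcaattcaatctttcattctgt
CYP26A1: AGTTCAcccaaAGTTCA
The RARB element begins 53 bases before the annotated start. A match describes letters and not a bound site. CYP26A1 had 1.26, 0.947 and 1.85 CPM in parental and 1.34, 0.975 and 1.49 CPM in p85β KR-AA libraries, which overlap. Its log2 fold change of -0.10 turned to 0.80 with scaling by library totals and to 0.33 with length and GC offsets.

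RARA, the receptor expressed in most tissues, had 45.8, 28.0 and 36.7 CPM in parental and 28.2, 26.2 and 30.7 CPM in p85β KR-AA libraries. The groups overlapped through parental replicate 2. The log2 fold change of -0.38 (standard error 0.181) turned to 0.54 with scaling by library totals and to 1.45 with length and GC offsets. An antisense gene, RARA-AS1, took means of 71.3 and 72.6 counts in the 2 conditions, and its reads cannot be told from those of RARA where they overlap.

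Per gene length, RARA, RARB and RARG together had 48.3 ± 8.22 CPM per kilobase in parental and 28.9 ± 2.30 in the mutant cells (SD, n = 3 each), an order that turned with scaling by library totals, to 35.2 ± 7.08 and 39.7 ± 2.45, where the libraries overlapped. RARG made up 59.8% to 65.5% of this in parental and 46.0% to 48.4% in p85β KR-AA libraries, RARA 34.5% to 40.2% and 48.6% to 49.7%. RARB reached 2.85% to 4.25% in p85β KR-AA libraries, so that RARA and RARG still made up nearly all of the receptor level.

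CRABP2, the small cytosolic protein that hands retinoic acid to its receptors, had the highest level per length of the 10 genes in parental cells. It had 577, 618 and 522 CPM there and 61.8, 58.1 and 68.6 CPM in p85β KR-AA libraries. The groups were widely separated, with means of 572 ± 48.1 and 62.8 ± 5.33 CPM (SD, n = 3 each), which differ 9.11-fold, and the log2 fold change was -3.19 (standard error 0.137). With scaling by library totals the log2 fold change was -2.26, and with length and GC offsets -1.41, under the fold of 3. CRABP2 (ENSG00000143320, minus strand of chromosome 1 of GRCh37, 156669398 to 156675608) is the shortest of the 10 genes in the table, with 1033 bases. FABP5, which also binds retinoic acid and carries it to another receptor, PPARD, is short as well (676 bases) and fell from 154 to 180 CPM in parental to 42.1 to 47.9 CPM in p85β KR-AA libraries (log2 fold change -1.90, edgeR quasi-likelihood adjusted p = 3.73e-08, and -0.97 with scaling by library totals and with offsets, under the fold of 3 in both). Of the level per kilobase of both carriers, CRABP2 held 68.9% to 70.1% in parental and 45.8% to 51.6% in p85β KR-AA libraries.

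**Figure D3:**
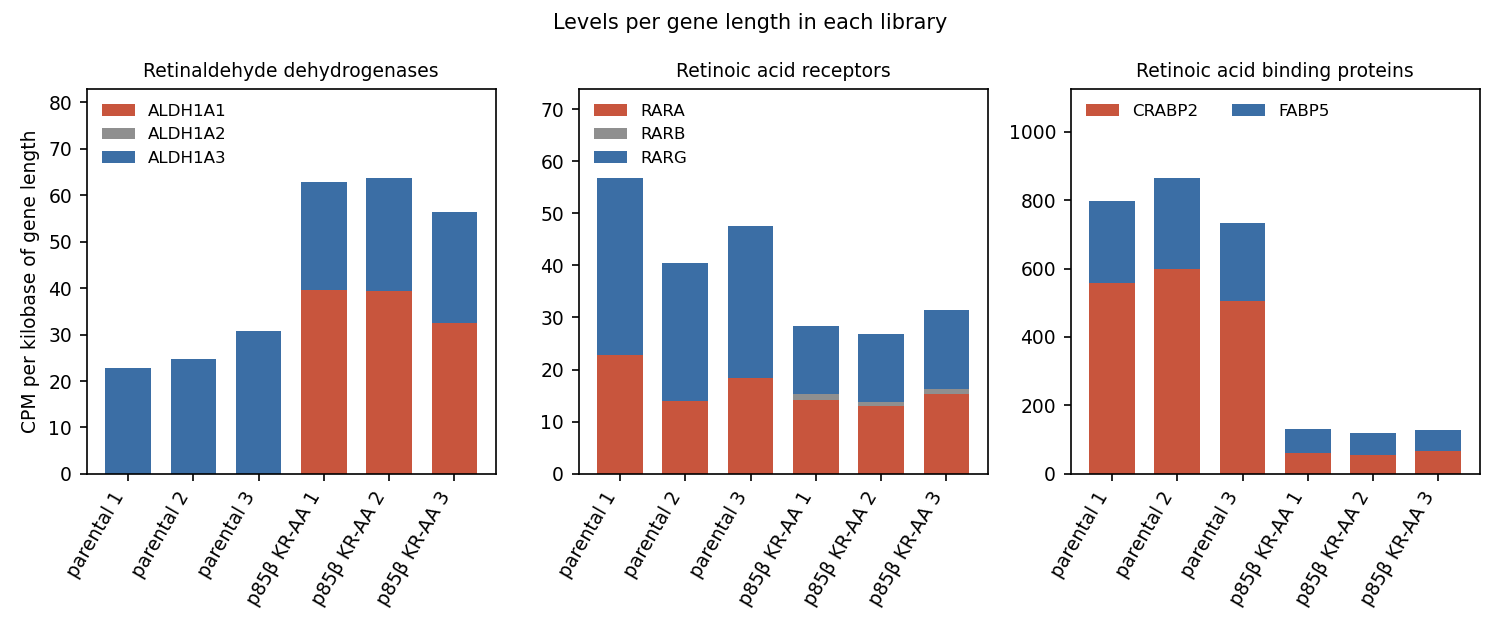
Stacked levels in CPM per kilobase of gene length in each library for ALDH1A1 to ALDH1A3 (left), RARA, RARB and RARG (middle) and CRABP2 and FABP5 (right), each panel with its own axis from 0. ALDH1A1 makes up 57.6% to 62.9% of the left bars of p85β KR-AA libraries and none of the parental bars, and the carriers sum to 733 to 865 in parental and 120 to 131 in p85β KR-AA libraries.

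By level per kilobase, the order in parental cells was CRABP2 (554 ± 46.5), ALDH3A1 (128 ± 8.03), ALDH1A3 (26.1 ± 4.17), ALDH1B1 (22.1 ± 3.50), RARA (18.4 ± 4.43), ALDH2 (17.4 ± 0.840) and ALDH3A2 (15.3 ± 3.25), with SD over 3 libraries, and ALDH1A1, ALDH1A2 and RARB at 0. The neighbors from ALDH1A3 down to ALDH3A2 lay within each other's spread. In p85β KR-AA cells the order was ALDH3A1 (318 ± 29.8), CRABP2 (60.8 ± 5.16), ALDH1A1 (37.1 ± 4.04), ALDH3A2 (28.1 ± 0.845), ALDH1A3 (23.8 ± 0.580), ALDH1B1 (16.2 ± 0.582), RARA (14.1 ± 1.13), ALDH2 (4.55 ± 0.267), RARB (0.970 ± 0.205) and ALDH1A2 (0.0412 ± 0.0201). There every neighboring pair was further apart than the sum of its SDs.

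Of the 9 tested genes, ALDH1A1 and RARB passed the call rule upward and ALDH2 and CRABP2 downward, beside 28.6% and 17.6% of all genes tested. The groups did not overlap in 7 of the 9 tested genes, and in 83.4% of all genes tested. The median log2 fold change was -0.13 over the 9 genes, which turned to 0.79 with scaling by library totals, and 0.32 over all. The members were chosen on this comparison, and nothing is read from these counts. Of the 3 genes without parental counts, ALDH1A1 and RARB have a lower bound and ALDH1A2 has no fold. The gene with the next fewest was RARA, with 385 counts in its lowest parental library.

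The rest of the ALDH family was tested gene by gene. Of 12 other ALDH genes, 11 could be tested, 1 was called higher, 2 were called lower, and 8 were not called, beside 28.6% higher and 17.6% lower over all genes. The median log2 fold change was 0.58 against 0.32 over all genes, an order that turned with length and GC offsets, to 0.17 against 0.27. ALDH1L2, the mitochondrial enzyme that oxidizes formyl-tetrahydrofolate, had at most 1 count in a parental library and 8.78 to 10.3 CPM in p85β KR-AA libraries, at least 44.4-fold higher on that floor (adjusted p = 8.54e-09, edgeR quasi-likelihood test). ALDH4A1, which completes proline breakdown in mitochondria, fell from 61.8 to 85.7 CPM to 9.16 to 10.2 CPM (log2 fold change -2.90, adjusted p = 1.02e-08). ALDH16A1, a member thought to lack catalytic activity, fell from 91.4 to 142 CPM to 23.0 to 28.8 CPM (log2 fold change -2.22, adjusted p = 1.25e-07). With scaling by library totals it was at -1.28 and with length and GC offsets at -0.79, under the fold of 3 in both.

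Of 50 other genes of the retinoid pathway, 35 could be tested, 8 were called higher, 10 were called lower and 17 were not called. The median log2 fold change of those tested was -0.27 against 0.32 over all genes, and turned to 0.65 with scaling by library totals. It stayed below the median over all genes under total scaling. With length and GC offsets it was above that median, at 0.33 against 0.27. Scaling by library totals gave 12 higher and 3 lower, and length and GC offsets 4 higher and 3 lower. In uptake, binding and storage, 6 of 10 tested genes were called lower and 2 higher, beside 17.6% and 28.6% of all genes, but with scaling by library totals 2 were lower and 3 higher, and with offsets 2 and 2. RBP7, a cellular retinol-binding protein, fell from 23.8 to 30.2 CPM to 2.12 to 2.73 CPM (log2 fold change -3.49, adjusted p = 9.10e-09). STRA6, the membrane receptor for retinol uptake, was near 1 CPM in parental libraries and 0.313 to 0.573 CPM in p85β KR-AA libraries, which was not called (log2 fold change -1.18, adjusted p = 0.0117, with -0.26 under total scaling and a turn to 0.34 with offsets).

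Of 9 tested enzymes that interconvert retinol and retinaldehyde, 1 was called higher and 2 lower, beside 28.6% and 17.6% of all genes tested. Scaling by library totals gave 2 and 0 of these enzymes, and offsets 0 and 0. DHRS3, which reduces retinaldehyde back to retinol, fell from 169 to 187 CPM to 46.4 to 52.4 CPM (log2 fold change -1.85, adjusted p = 3.23e-08). It was under the fold of 3 with scaling by library totals (-0.93) and with length and GC offsets (-0.77). RDH10, the main retinol dehydrogenase of development, had 6.63 to 11.8 CPM and 7.69 to 8.57 CPM, which overlap (log2 fold change -0.30, adjusted p = 0.230, and 0.61 with scaling by library totals). CYP26A1 and CYP26B1, the 2 tested genes of retinoic acid breakdown, were not called by edgeR (CYP26A1 adjusted p = 0.785) or DESeq2, with an unadjusted p under 0.05 in 0 of 2. CYP26B1 had 3.42 to 11 CPM in parental and 11.4 to 12.8 CPM in p85β KR-AA libraries, which do not overlap (log2 fold change 0.56, adjusted p = 0.121). Its log2 fold change was 1.46 with scaling by library totals (edgeR adjusted p = 0.00408), under the fold of 3, and 0.86 with offsets. Without parental replicate 2, the lowest, it was 0.17.

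Of 10 tested nuclear receptors and cofactors, 5 were called higher and 1, RXRB, lower, beside 28.6% and 17.6% of all genes tested. Scaling by library totals gave 6 and 0, and offsets for length and GC 2 and 0, since RXRB (log2 fold change -1.94) was then at -1.01 and -0.77. The genes called higher were all coregulators of nuclear receptors. The corepressor NCOR1 rose from 1.89 to 4.63 CPM to 38.8 to 46.2 CPM (log2 fold change 3.71, adjusted p = 3.80e-08). The coactivator NCOA3 rose from at most 4.07 CPM to 41.4 to 46.0 CPM (log2 fold change 4.0, adjusted p = 6.13e-08). NRIP1, a corepressor, rose from 0.0728 to 0.731 CPM to 3.94 to 7.67 CPM (log2 fold change 4.03, adjusted p = 4.95e-06). These are long genes (7751 to 10705 bases), and the offsets put NCOR1 at 1.55, under the fold of 3, NCOA3 at 1.81 and NRIP1 at 1.61. The calls of NCOA1 and NCOA2 were also lost with them. The receptors RARG and RXRA were not called: RARG had a log2 fold change of -1.12 (adjusted p = 9.62e-06), which was -0.20 with scaling by library totals and turned to 0.19 with offsets, and RXRA one of -0.27 (adjusted p = 0.105), which turned to 0.65 with scaling by library totals.

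Of 4 tested genes known to respond to retinoic acid, 1 was called lower and 0 higher by edgeR and by DESeq2, with an unadjusted p under 0.05 in 1 upward and 2 downward. Over all genes tested, edgeR called 17.6% lower and 28.6% higher. RARRES2, the gene for the secreted protein chemerin, fell from 54.3 to 75.4 CPM to 2.72 to 3.64 CPM (log2 fold change -4.37, adjusted p = 4.08e-09, edgeR quasi-likelihood test), and it stayed past the thresholds with scaling by library totals (-3.44) and with length and GC offsets (-1.59). The genes of this set that were not called included TGM2, at 18.9 to 26.9 CPM in parental and 20.2 to 25.2 CPM in p85β KR-AA libraries. Its log2 fold change of -0.05 turned to 0.87 with scaling by library totals.

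**Figure D4:**
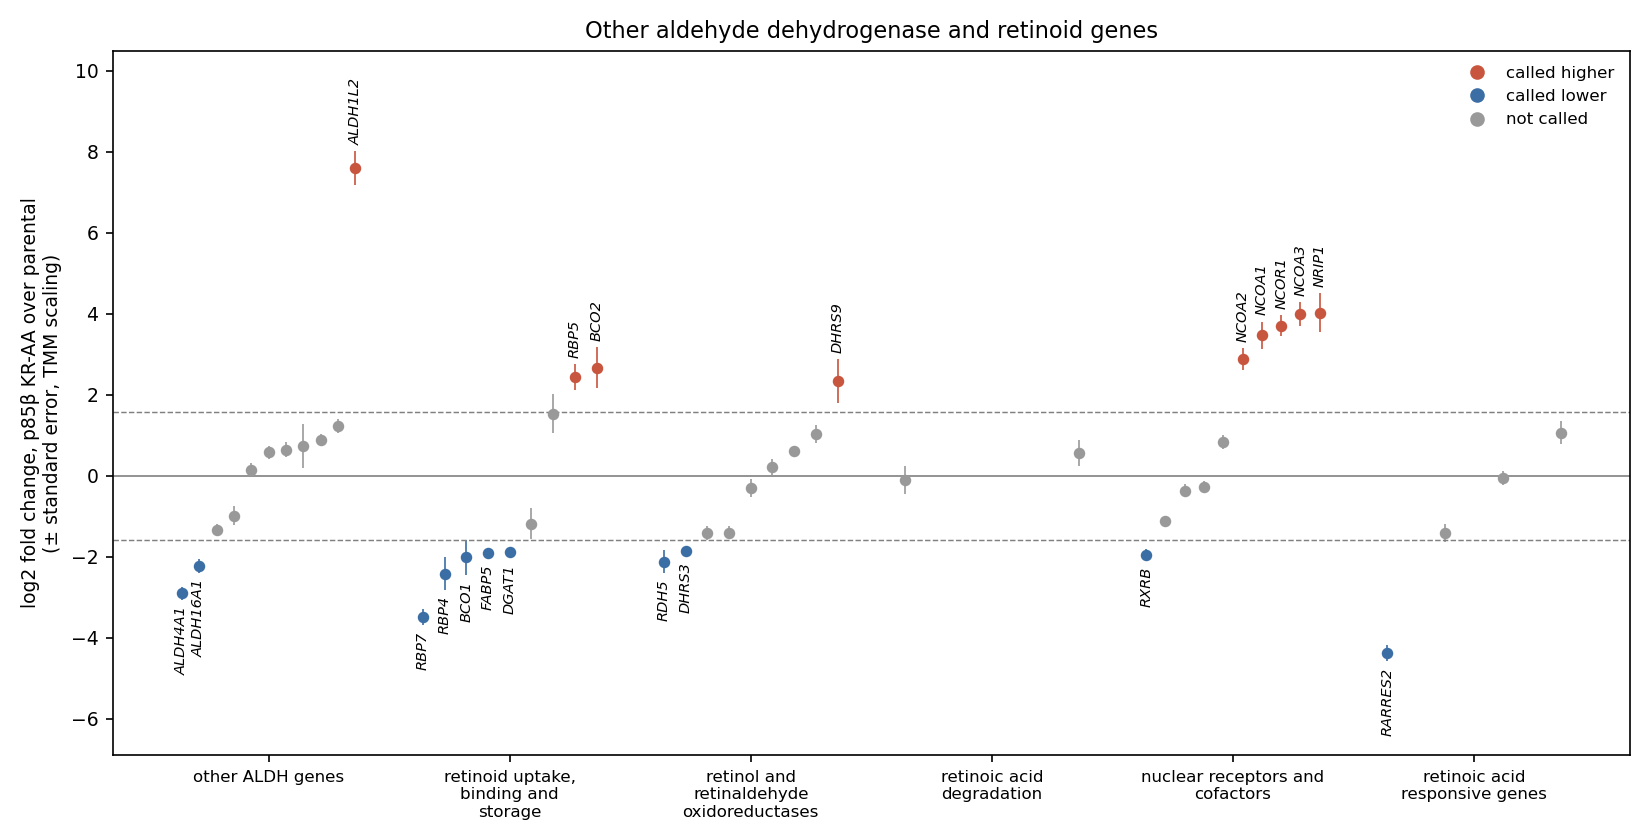
Log2 fold change (p85β KR-AA over parental, ± standard error, TMM scaling) of the tested genes, 1 left out, in 6 lists of other aldehyde dehydrogenase and retinoid genes, sorted within a list, with dashed lines at a fold of 3 and names for genes that were called. Retinoid-binding and storage genes are mostly below 0, and the called nuclear receptor cofactors lie between 2.89 and 4.03. The value of ALDH1L2, BCO2 and DHRS9 is an estimate that depends on how near-zero parental counts are treated.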

How the data were processed

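RNA-seq of 3 parental and 3 p85β KR-AA libraries was analysed. The deposited table holds the authors' estimated counts, not normalized, for each Ensembl gene, with a gene length. The methods name SeqPrep and Sickle for trimming, and the submitters' processing notes name HISAT2 2.1.0, RSEM 1.3.1, DESeq2 1.24.0 and hg18, with no roles. The annotation is not given in the sources used here.

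Counts were rounded to whole numbers and compared in R 4.3.3 by edgeR 4.0.16. The filter was filterByExpr (count 10, total 15), and TMM, the quasi-likelihood F test and Benjamini-Hochberg adjustment over 16059 genes followed, without a covariate. Symbols and GRCh37 positions came from GENCODE release 44 by Ensembl identifier (56745 of 58884 matched), and promoter windows from RefSeq (GRCh38.p14) by symbol (8 of 10 members and 47 of 62 other genes). CPM used TMM-scaled totals, in which 1 count was 0.02728 to 0.07282 CPM. The floor of 3 counts covers counting error only. Alternatives were DESeq2 1.42.0, library totals, other filters, a replicate block with robust moderation, each library left out, and offsets from robust splines (MASS, 5 degrees of freedom) for length and GC content. The fits were also run on simulated counts in which few genes changed, unlike here, so that run cannot test the scaling of these data.

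The members, lists and tests were chosen with earlier results of these data known. Named beside the members were the 3 largest called changes in each direction of the ALDH list and of the retinoid lists, 7 fixed retinoid genes (STRA6, RDH10, DHRS3, CYP26A1, CYP26B1, RARG and RXRA) and the 3 genes most like ALDH1A1. FABP5, TGM2, RXRB, BCO2 and DHRS9 were named after their values were seen. The values of 1 further gene of the lists are not reported here, although the list counts include it.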

Additional observations from a re-analysis of the deposited data

How the results depend on the processing

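Of the values of single named genes under an alternative, 268 kept their direction and their side of the thresholds, 8 fell short of them, 3 passed them and 16 changed sign. With scaling by library totals, 4 members were called higher and 1 lower, 3 other ALDH genes higher and 1 lower, 3 retinoid genes lower, and 7052 genes in all higher and 973 lower (4597 and 2825 with TMM), so that higher genes made up 87.9% of calls in place of 61.9%. The log2 fold change then turned to 0.79 for ALDH1A3, 0.47 for ALDH1B1, 0.54 for RARA, 0.61 for RDH10, 0.80 for CYP26A1 and 0.65 for RXRA. With length and GC offsets, 1 member, 1 other ALDH gene and 3 retinoid genes were called lower, and 3 members, 2 other ALDH genes and 4 retinoid genes higher. In all, 2832 genes were then higher and 1041 lower. With these offsets the log2 fold change turned to -0.15 for ALDH3A2, 1.45 for RARA, 0.34 for STRA6, 0.33 for CYP26A1, 0.19 for RARG and 0.22 for RXRA. With at least 10 counts in every library, which removes genes without parental counts, 0 members and 0 other ALDH genes, 3 retinoid genes and 2898 genes in all were called higher, and the log2 fold change turned to 0.07 for ALDH1A3 and 0.09 for CYP26A1. With single libraries left out, that of CYP26A1 (-0.10 with all) ran from -0.32 without parental replicate 2 to 0.15 without parental replicate 3, and was 0.06 without p85β KR-AA replicate 2. The cause was not tested. With each library left out in turn, 4404 to 4783 genes were called higher and 2774 to 2992 lower, and members stayed at 2 and 2. With the replicate number as a block, members also stayed at 2 and 2, and 4618 genes were higher and 2823 lower. Same-numbered libraries did not deviate together (correlations of -0.136, 0.119 and -0.0447), so the numbers were not taken as pairs. Depth limits the folds of ALDH1A1 and RARB to lower bounds and allows none for ALDH1A2.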
